A study of Mus musculus with 12 samples.

Results

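Of the 479 genes in the deposited thymus table, 7 genes that mark maturing, regulatory or innate-like T cells are described here. They are *Foxp3*, *Itm2a*, *Ms4a4b*, *Ablim1*, *Zbtb16*, *Gzmb* and *Tagap*, taken by their symbols. They were chosen by their known expression in T cells and with their WT and *Axl-/-Mertk-/-* values already seen, and the table itself was selected on the difference between these genotypes, since 469 of its 479 genes have a log2 ratio of group means beyond 0.5 in size. The genotype differences below are therefore a description, with no p-value printed for them, and counts of genes past a threshold are given only beside the share of the whole table. Whole thymus was taken at 1 month of age from 6 WT mice (3 females and 3 males) and 6 *Axl-/-Mertk-/-* mice (3 females and 3 males), which lack the receptor tyrosine kinases Axl and Mer in every cell of the body. The mutants were a line backcrossed to C57BL/6, and WT and mutant lines were housed apart, so housing and genotype cannot be told apart. Values are FPKM, a read density that accounts for exon length and library size, recovered from the deposited log2(FPKM + 5). Single mice are named by genotype and number as in their labels, with AMDKO for the mutants.

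Thymocytes that have passed positive selection leave the double positive stage, move to the medulla and mature there into CD4 or CD8 single positive cells before they exit. Regulatory T cells, which need the transcription factor Foxp3, arise among these medullary cells. Innate-like T cells, such as NKT cells, need the transcription factor PLZF, the product of *Zbtb16*, and gain effector features before they leave the thymus. Axl and Mer are carried mainly by macrophages, which use them to engulf apoptotic thymocytes.

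In the *Axl-/-Mertk-/-* thymus, 6 of the 7 genes had a lower mean than in WT, at 52.8% to 69.3% of the WT level, and *Gzmb* had a higher one, at 182%. Every mutant mouse lay below every WT mouse for *Foxp3*, *Itm2a*, *Ms4a4b*, *Ablim1* and *Tagap*, and above every WT mouse for *Gzmb*. These are 5 genes lower and 1 higher without overlap, in a table in which 26.3% of genes were lower and 12.7% higher in this way. The members' median was 65.8% of WT, and the median over all genes was 67.6%. Of the 479 genes of the table, 313 had a lower mean and 166 a higher one. The 4 genes of maturing T cells in the table, *Itm2a*, *Ms4a4b*, *Ablim1* and *Tagap*, were all lower. All 4 are members, so that list adds no other gene to compare. Of the innate-like members *Zbtb16* was lower and *Gzmb* higher. Of 5 other listed innate-like T and NK genes, 4 had a lower mean and 1 a higher one. Beside *Foxp3*, 2 of 3 other regulatory T-cell genes had a lower mean, and *Ctla4* had a higher one.

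**Figure D1:**
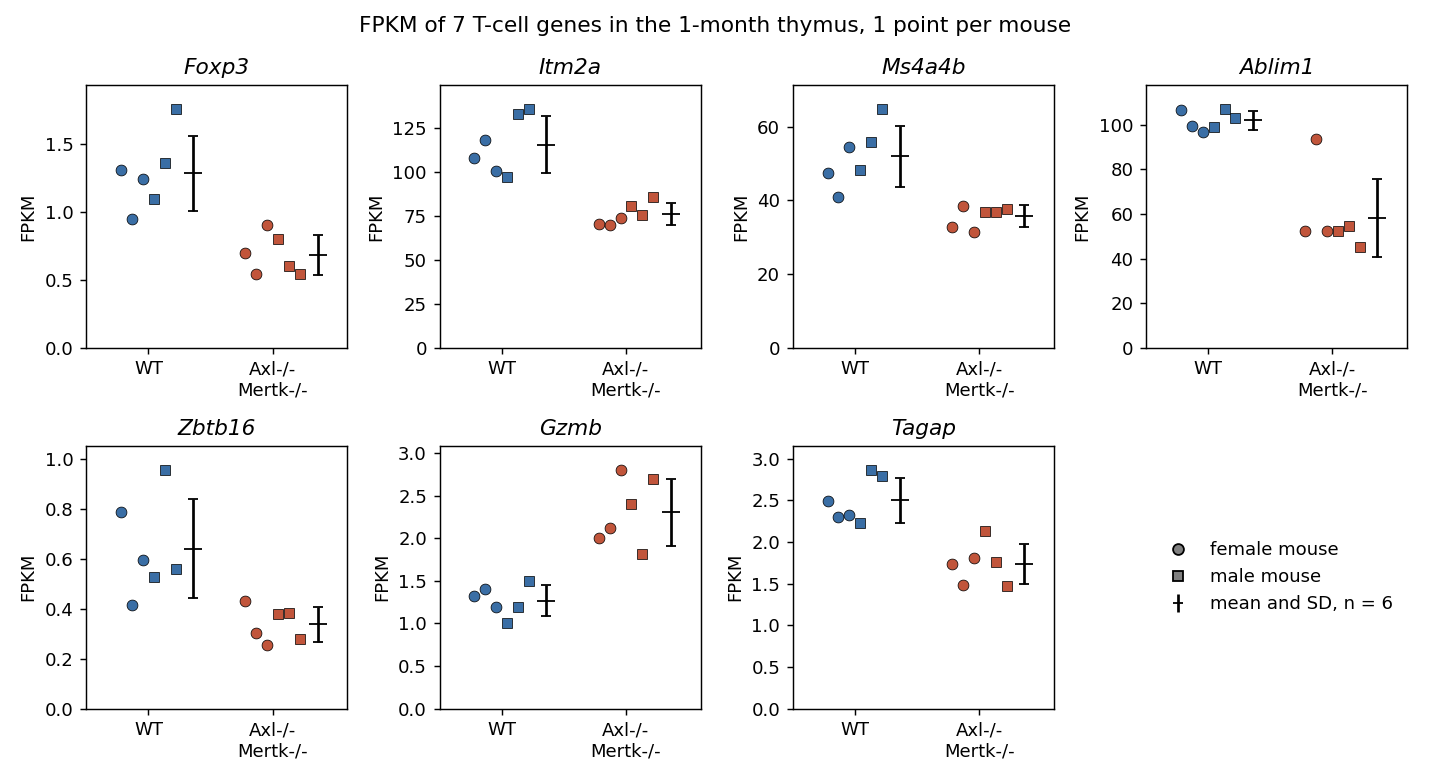
FPKM of the 7 genes (y axis, each panel on its own scale from 0) in 6 WT and 6 *Axl-/-Mertk-/-* mice, with circles for females, squares for males and the mean with SD beside the points. The genotypes are separated for 6 genes, *Zbtb16* overlaps by 1 pair of mice, and 1 mutant female stands at 93.3 FPKM of *Ablim1* while the other 5 mutants lie between 45.1 and 54.6 FPKM.

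Sequence just upstream of the start site is shown for 3 genes that have a start in the reference used here. They are *Foxp3*, a gene of regulatory cells, *Itm2a*, of maturing cells, and *Gzmb*, of effector cells. No start was matched for *Zbtb16*, the gene of innate-like cells. Each is the 250 bases before a RefSeq start (build GRCm38.p6), read 5′ to 3′ on the strand of the gene. Capitals mark the letters of 5 motifs searched on both strands. The TATA box was searched as TATAAA. Letters known from sites of GATA factors were AGATAA. Those of RUNX factors were TGTGGT. For ETS factors they were GGAAGT. For CREB factors TGACGT was searched.
Foxp3, chrX:7579426-7579675, plus strand: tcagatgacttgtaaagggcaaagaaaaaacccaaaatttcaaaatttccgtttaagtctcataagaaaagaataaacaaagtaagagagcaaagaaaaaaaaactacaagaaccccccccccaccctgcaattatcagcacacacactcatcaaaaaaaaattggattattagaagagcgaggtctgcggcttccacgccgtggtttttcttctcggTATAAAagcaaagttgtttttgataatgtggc
Itm2a, chrX:107403361-107403610, minus strand: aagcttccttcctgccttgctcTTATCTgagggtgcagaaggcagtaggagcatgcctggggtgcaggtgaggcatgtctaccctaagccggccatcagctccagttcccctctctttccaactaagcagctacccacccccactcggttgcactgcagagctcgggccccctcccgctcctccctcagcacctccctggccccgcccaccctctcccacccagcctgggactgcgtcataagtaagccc
Gzmb, chr14:56262335-56262584, minus strand: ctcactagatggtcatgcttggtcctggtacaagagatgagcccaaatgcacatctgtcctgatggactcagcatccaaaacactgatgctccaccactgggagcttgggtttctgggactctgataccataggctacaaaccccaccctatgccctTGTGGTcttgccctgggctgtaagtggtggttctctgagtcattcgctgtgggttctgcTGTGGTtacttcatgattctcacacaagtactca
The *Foxp3* stretch held TATAAA beginning 32 bases before the start. The *Itm2a* stretch held AGATAA once, 228 bases before the start and on the opposite strand, and the *Gzmb* stretch held TGTGGT at 93 and at 34 bases before the start. Among 32851 RefSeq promoters of the same length, the TATA box letters were held by 12.4%, the GATA letters by 9.99%, the RUNX letters by 14.05%, the ETS letters by 19.7% and the CREB letters by 6.47%, on either strand. Over all starts listed for the members, the ETS letters were found before *Ms4a4b*, *Ablim1* and *Tagap*, and the CREB letters before none of them. RefSeq starts were matched for 6 of the 7 genes, 11 starts in all since *Ablim1* and *Foxp3* have several, and *Zbtb16* is named only. These matches describe letters and no binding was measured.

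The 7 genes lie on 5 chromosomes of mm10 (GENCODE vM21 annotation), and none is on the chromosome of *Axl* or of *Mertk*. *Foxp3* (chrX:7573644-7595245) and *Itm2a* (chrX:107397099-107403376) are on X, *Ms4a4b* (chr19:11443553-11467055) and *Ablim1* (chr19:57032733-57314919) on 19, *Zbtb16* (chr9:48654297-48836222) on 9, *Gzmb* (chr14:56258838-56262260) on 14 and *Tagap* (chr17:7926000-7934897) on 17. All are protein-coding, and reads were counted over their exons. *Tagap* is uncertain, since 47.6% of its distinct stretches of 50 bases, the read length, also occur in transcripts of *Tagap1*, and since 716 of its 3080 exonic bases overlap a gene on the opposite strand. For *Foxp3*, 31.5% of the 4577 exonic bases overlap those of other genes, 853 bases on the same strand and 856 on the opposite one. Among these genes is *Flicr*, a noncoding gene on the same strand with which 14.7% of the 50-base stretches are shared. In *Ms4a4b* 2.40% of the stretches are shared with other genes, in *Zbtb16* 0.192%, and in *Itm2a*, *Ablim1* and *Gzmb* none.

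*Foxp3*, which directs the regulatory T-cell program, had between 0.945 and 1.76 FPKM in WT mice, with a median of 1.27. The *Axl-/-Mertk-/-* mice had between 0.541 and 0.904 FPKM, with a median of 0.653. The groups did not overlap, although the highest mutant (female AMDKO_231) and the lowest WT mouse (female WT_214) were only 0.041 FPKM apart. The means were 1.29 ± 0.277 and 0.683 ± 0.148 FPKM (SD, n = 6 each), which puts the mutants at 53.1% of WT, and the difference was -0.14 (SE 0.0295) on the log2(FPKM + 5) scale. This scale understates the change of a gene far below 5 FPKM, and with a constant of 0.1 the difference was -0.82.

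*Zbtb16* encodes PLZF, which gives NKT and other innate-like T cells their effector character. It was the least abundant of the 7 genes, with 0.415 to 0.958 FPKM in WT mice (median 0.577) and 0.254 to 0.431 FPKM in mutants (median 0.343). The genotypes overlapped by 1 pair, WT female WT_214 at 0.415 and mutant female AMDKO_219 at 0.431 FPKM. The means were 0.641 ± 0.198 and 0.339 ± 0.0701 FPKM (SD, n = 6 each), or 52.8% of WT, and the log2(FPKM + 5) difference was -0.08 (SE 0.0221).

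*Itm2a*, a single-pass membrane protein whose mRNA rises in thymocytes during positive selection, had the highest mean of all 479 genes. The WT mice lay between 97.1 and 136 FPKM with a median of 113. The mutants lay between 69.7 and 85.7 FPKM with a median of 74.6, so the lowest WT mouse was 11.4 FPKM above the highest mutant. The means of 115 ± 16.3 and 75.9 ± 6.17 FPKM (SD, n = 6 each) put the mutants at 65.8% of WT, and the log2(FPKM + 5) difference was -0.56 (SE 0.0758).

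*Ms4a4b* encodes a T-cell membrane protein of the MS4A family that is abundant in mature T cells. It ranged from 41.0 to 64.8 FPKM in WT mice (median 51.4) and from 31.3 to 38.6 FPKM in mutants (median 36.8). The groups were apart by 2.40 FPKM, with WT female WT_214 lowest among WT and mutant female AMDKO_220 highest among mutants. The means were 52.0 ± 8.31 and 35.7 ± 2.95 FPKM (SD, n = 6 each), or 68.6% of WT, with a log2(FPKM + 5) difference of -0.48 (SE 0.0797). *Ms4a4a*, the other gene of the family in the table, went the other way, from 1.56 ± 0.519 to 3.27 ± 1.06 FPKM (SD, n = 6 each), with overlap of the genotypes.

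*Ablim1* encodes an actin-binding LIM protein whose mRNA is abundant in naive T cells. It was the most even of the 7 genes among WT mice, at 96.7 to 107 FPKM with a median of 101, where the SD was 4.23% of the mean. Of the mutants, 5 lay between 45.1 and 54.6 FPKM and female AMDKO_220 had 93.3 FPKM, 3.38 FPKM below the lowest WT mouse. The means were 102 ± 4.31 and 58.3 ± 17.4 FPKM (SD, n = 6 each), or 57.3% of WT, and the log2(FPKM + 5) difference was -0.79 (SE 0.132). Without mouse AMDKO_220 the mutants stood at 50.4% of WT with a difference of -0.92 (SE 0.0468).

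Mouse AMDKO_220 was close to WT for *Ablim1* alone among the 7 genes. It was the highest of the 6 mutants for *Ms4a4b*, at 74.2% of the WT mean, and the lowest for *Itm2a* (60.5%). Counted from the highest mutant, it took place 5 for *Foxp3* (42.3%) and *Tagap* (59.5%) and place 4 for *Zbtb16* (47.5%) and *Gzmb* (168%). Over the whole table, *Ablim1* was the 1 gene in which mouse AMDKO_220 stood apart from the other mutants towards WT, where the other 5 mutants did so in 0 to 6 genes each. Its cause was not tested.

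**Figure D2:**
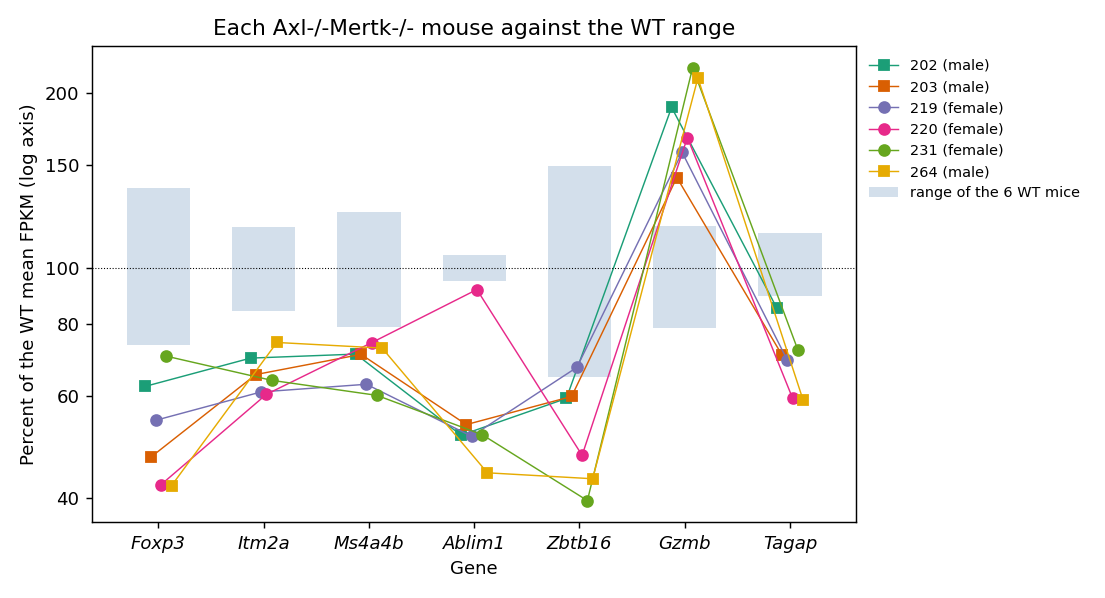
Each *Axl-/-Mertk-/-* mouse as percent of the WT mean FPKM (y axis, log scale) for the 7 genes (x axis), with 1 line per mouse, circles for females, squares for males and shaded bars for the range of the 6 WT mice. Mouse AMDKO_220 lies at 91.6% for *Ablim1* but at 42.3% for *Foxp3*, and mouse AMDKO_231 is highest for *Gzmb* at 221% and lowest for *Zbtb16* at 39.7%.

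*Tagap* encodes a GTPase-activating protein that is induced when T cells are activated. It had 2.23 to 2.87 FPKM in WT mice (median 2.41) and 1.48 to 2.13 FPKM in mutants (median 1.75). The genotypes did not overlap, by 0.102 FPKM between WT male WT_210 and mutant male AMDKO_202, for a value that may include reads of *Tagap1*. The mutants stood at 69.3% of WT, with a log2(FPKM + 5) difference of -0.16 (SE 0.0276).

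*Gzmb* encodes granzyme B, the serine protease that cytotoxic cells release to kill their targets, and was the 1 member with higher values in mutants. The WT mice lay between 1.00 and 1.499 FPKM (median 1.26) and the mutants between 1.82 and 2.81 FPKM (median 2.26). The lowest mutant was 0.316 FPKM above the highest WT mouse. The means were 1.27 ± 0.178 and 2.31 ± 0.393 FPKM (SD, n = 6 each), which is 1.82-fold higher, and the log2(FPKM + 5) difference was 0.22 (SE 0.0357). *Gzmc*, the other granzyme gene in the table, was at 188% of WT (0.447 ± 0.144 and 0.842 ± 0.299 FPKM, SD, n = 6 each), with overlap of the genotypes.

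With the thresholds of the study (adjusted p under 0.05 and a log2 fold change beyond 0.5, here by limma over the 479 genes), 2 of the 7 genes, *Itm2a* and *Ablim1*, counted as lower on the log2(FPKM + 5) scale and none as higher, where 3.13% of the table was lower and 2.92% higher. With a constant of 1, *Ms4a4b* was added as lower and *Gzmb* as higher, against 11.9% and 10.6% of the table. With a constant of 0.1, all 7 passed, 6 lower and 1 higher, against 50.9% and 29.4% of the table. Without the size threshold all 7 had an adjusted p under 0.05, as had 95% of the table. As the table was selected on this contrast, nothing is read from these counts. *Ablim1* no longer passed in females alone (log2 difference -0.62, SE 0.227), the sex to which mouse AMDKO_220 belongs, and *Ms4a4b* passed in males alone (-0.53).

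The reads behind the low genes were recovered from the steps between FPKM values, which rise by 1 read at a time. Libraries held an estimated 18819800 to 24496400 reads in WT mice and 19320000 to 23786000 in mutants. Estimates from alternate sets of genes differed by at most 0.342% in 11 libraries and by 15.6% in WT male WT_211. At the full estimates, *Foxp3* rested on 67 to 155 reads per WT mouse and 42 to 81 per mutant, *Zbtb16* on 40 to 114 and 30 to 51, *Gzmb* on 37 to 53 and 53 to 101, and *Tagap* on 133 to 205 and 94 to 141. Counting error alone gives *Gzmb* a coefficient of variation of 15.3% in WT, where 14.04% was observed, so differences among WT mice were not detectable at this depth. In mutants the *Gzmb* spread was 17.0% against a counting error of 11.7%. For *Zbtb16* the spread was 30.9% against 12.1% in WT and 20.7% against 16.7% in mutants. For *Foxp3* the observed spread, 21.6% in each genotype, exceeded the counting error of 9.79% in WT and 13.8% in mutants. The 3 abundant genes had about 2100 reads or more in every library, with the shortest annotated *Ablim1* transcript as its length, and counting error there was at most 2.17%. These errors cover counting only.

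Sex did not choose the members, so it was tested (limma on log2(FPKM + 5), male minus female, with genotype in the fit). None of the 7 genes passed at an adjusted p under 0.05, and none had an unadjusted p under 0.05. Of all genes 0% passed, with 69 genes at an unadjusted p under 0.05. The male minus female differences were 0.16 for *Ms4a4b* (95% interval -0.01 to 0.34, adjusted p = 0.361) and 0.15 for *Itm2a* (-0.01 to 0.32, adjusted p = 0.372), and lay between -0.14 and 0.04 for the other 5 genes. Of the mutants, all 3 males (75.4 to 85.7 FPKM) had more *Itm2a* than any of the 3 females (69.7 to 73.7 FPKM), while WT males (97.1 to 136 FPKM) and females (101 to 118 FPKM) overlapped. This separation was picked after seeing the values, and the share of the table with it was not counted. In mutants alone no member passed for sex (limma, smallest adjusted p 0.362), so no sex effect is read from it. The *Itm2a* difference depended on WT male WT_210, the lowest WT mouse for this gene and the only one whose label ends in a b. Without it the difference was 0.22 (adjusted p = 0.0600, limma), and 6 genes of the table passed, none of them a member.

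Mutants stood at 46.2% of WT in males and at 61.5% in females for *Foxp3*, and at 49.3% and 65.5% for *Ablim1*. For the other 5 genes the sexes were closer, for example 66.1% in males and 65.5% in females for *Itm2a*. The genotype by sex interaction did not pass for any of the 7 genes (limma, adjusted p 0.962 or above, 0 with an unadjusted p under 0.05), nor for any gene of the table (0%, with 15 genes at an unadjusted p under 0.05). Its largest estimate was -0.33 for *Ablim1* (95% interval -0.91 to 0.24, adjusted p = 0.962), and -0.07 without mouse AMDKO_220 (adjusted p = 0.997, limma). For *Foxp3* it was -0.07 (95% interval -0.20 to 0.06, adjusted p = 0.962, limma). The intervals leave room for a sex effect of the size of the genotype difference in *Ablim1*, so the sexes were not shown to be alike.

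Covariation was examined within each genotype, because across both it would restate the difference that chose the genes. Among the 6 WT mice, 20 of the 21 pairs of members had a Pearson's r above 0 on log2(FPKM + 5), with a median of 0.47, and the 1 negative pair was *Zbtb16* with *Gzmb* (-0.16). Among the 6 *Axl-/-Mertk-/-* mice, 7 of the 21 pairs were above 0, with a median of -0.10. Without *Gzmb*, whose WT spread did not exceed its counting error, 15 of 15 pairs were above 0 in WT and 5 of 15 in mutants. Over all pairs of genes in the table, 63.2% were above 0 in WT and 56.4% in mutants, with medians of 0.20 and 0.09. Among pairs of the 313 genes with a lower mean in mutants, 73.3% and 57.4% were above 0, with medians of 0.35 and 0.11. The pairs share mice and libraries, and the difference between the genotypes was not tested. In the mutants it also rested on male AMDKO_264, without which 11 of 21 pairs were above 0 and the median was 0.14, an alternative chosen after seeing the data.

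No pair passed after adjustment over the 42 relations (exact permutation test, two-sided, smallest adjusted p 0.532 for Pearson's r and 0.467 for Spearman's rho). *Foxp3* and *Ms4a4b* gave r = 0.92 in WT mice (exact permutation p = 0.0181, adjusted 0.532), and rho = 0.83 (exact p = 0.0583, adjusted 0.480). Without the 2 mice farthest from the *Foxp3* median r fell to 0.49. Leaving out the extreme mice narrows the range and can lower r by itself, so this cannot show whether the relation rests on them. In mutants the same pair had r = -0.77 (exact permutation p = 0.0917, adjusted 0.532) and rho = -0.77 (exact p = 0.103, adjusted 0.480), and r = -0.98 without 2 mice. *Foxp3* and *Tagap* were the 1 pair above 0.7 in both genotypes, with r = 0.79 in WT (exact permutation p = 0.0458, adjusted 0.532, rho = 0.89, exact p = 0.0333, adjusted 0.467) and 0.75 in mutants (exact permutation p = 0.0861, adjusted 0.532, rho = 0.89, exact p = 0.0333, adjusted 0.467). Without 2 mice these were 0.86 and 0.80. *Itm2a* and *Tagap* had r = 0.87 in WT (exact permutation p = 0.0389, adjusted 0.532, rho = 0.77, exact p = 0.103, adjusted 0.480). Without 2 mice r was 0.30 for this pair, with the same limit. *Zbtb16* and *Gzmb* were opposed in mutants, with r = -0.77 (exact permutation p = 0.101, adjusted 0.532) and rho = -0.89 (exact p = 0.0333, adjusted 0.467). Without 2 mice r was -0.60. These genes rest on few reads in mutants, 30 to 51 for *Zbtb16* and 53 to 101 for *Gzmb*, so counting error makes up part of each spread.

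**Figure D3:**
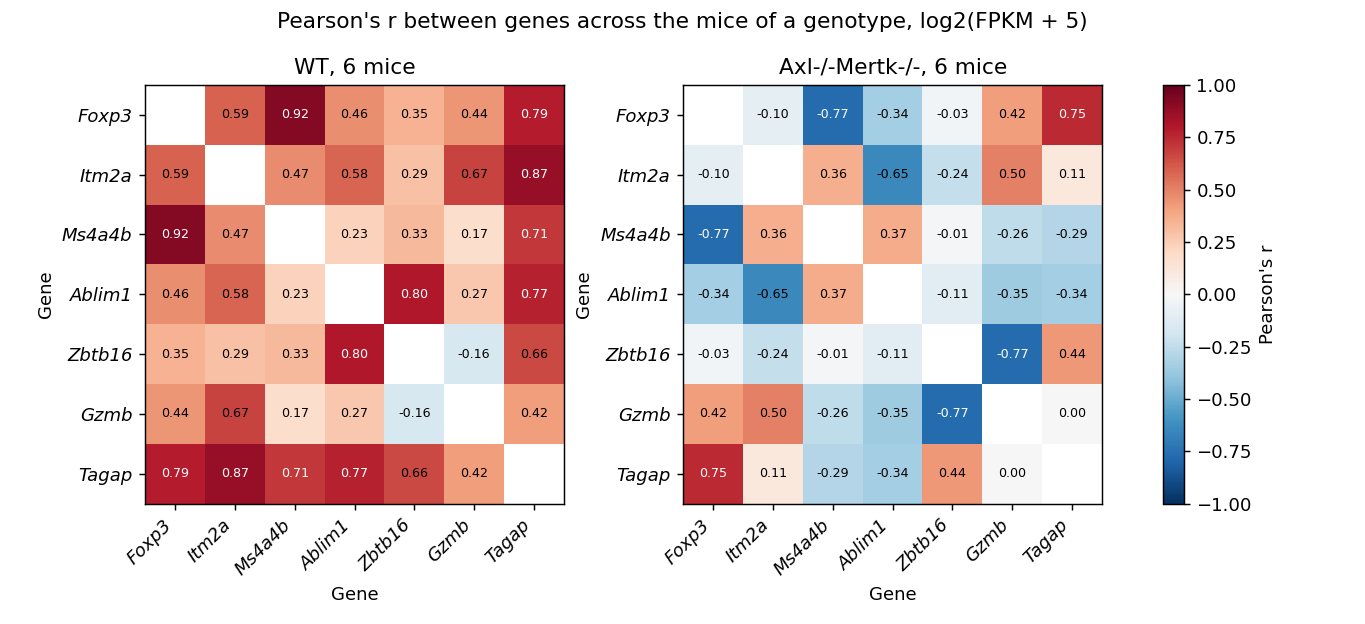
Pearson's r on log2(FPKM + 5) between the 7 genes (both axes) across the 6 WT mice (left) and the 6 *Axl-/-Mertk-/-* mice (right), with red above 0 and blue below 0. In WT 20 of 21 pairs are positive and in mutants 7 of 21, and *Foxp3* with *Ms4a4b* is at 0.92 in WT and -0.77 in mutants.

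For each member the 3 genes with the most similar pattern were taken by Pearson's r of deviations from the genotype mean over the 12 mice. These are a description over points that share library and depth. *Foxp3* was most like *Pdcd1lg2* (0.91), which encodes the PD-1 ligand PD-L2, *Naip6* (0.90) and *Axl* (0.88). *Itm2a* was most like *Sp6* (0.91), *Ltbp1* (0.86) and *Eomes* (0.86), a T-box factor of cytotoxic and innate-like cells. *Ms4a4b* came closest to *Trim63* (0.89), *Dgkk* (0.83) and *Kcnk6* (0.83), of which *Trim63* and *Dgkk* were at or below 0.262 FPKM on average. *Tagap* came closest to *Grin2c* (0.91), *Gcnt2* (0.89) and *Skint8* (0.89).

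The remaining 3 members had looser partners. *Zbtb16* was most like *Gm4759* (0.81), *Cd226* (0.71), a receptor of NK and T cells, and *A630019I02Rik* (0.70). *Gzmb* was most like *Mefv* (0.83), *Hoxa5* (0.80) and *Kcnj10* (0.79), and *Ablim1* like *Uprt* (0.72), *Gdap10* (0.61) and *Jph2* (0.61). The WT spread of *Gzmb* did not exceed its counting error, so its WT deviations may be counting noise. *Mefv* (0.597 FPKM in WT and 0.847 in mutants) and *Hoxa5* (0.672 and 0.329) were low as well. The *Ablim1* deviations include mouse AMDKO_220, far from the other mutants. Leaving out 1 mouse put *Gdap10* as low as place 47 and *Jph2* as low as place 29. Among the partners of *Zbtb16*, it put *A630019I02Rik* as low as place 71, with a lowest r of 0.339. *Jph2* was low, at 0.0782 FPKM in WT and 0.181 in mutants, as was *Naip6*, named for *Foxp3*, at 0.266 and 0.176. No member was among the 3 nearest genes of another, and the closest such place was that of *Foxp3* for *Tagap*, at 22. Leaving out 1 mouse at a time kept 9 to 15 of these 21 choices.

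Lists of marker genes show how few other T-cell genes the table holds. Of 58 genes of maturing T cells it holds 4, which are *Itm2a*, *Ms4a4b*, *Ablim1* and *Tagap*. It holds 0 of 25 genes of double positive thymocytes and 0 of 19 of early double negative thymocytes, so the label of the 7 genes could not be checked against those stages. Of 30 regulatory T-cell genes it holds 4. Beside *Foxp3*, the checkpoint receptor gene *Ctla4* was higher in mutants without overlap (4.36 ± 0.310 and 6.84 ± 1.18 FPKM, SD, n = 6 each). The receptor gene *Gpr83* stood at 61.0% of WT (2.84 ± 0.831 and 1.73 ± 0.417 FPKM) and *Nt5e*, which encodes the ectonucleotidase CD73, at 65.1% (1.72 ± 0.323 and 1.12 ± 0.124 FPKM), both with overlap.

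Of 50 innate-like T and NK genes the table holds 7. Beside *Zbtb16*, *Gzmb* and *Gzmc* these are the NK receptor genes *Klra1* (68.0% of WT), *Klra7* (38.7%) and *Cd244* (68.2%) and the transcription factor gene *Eomes* (62.5%), each with overlap of the genotypes. Of 31 genes of T-cell receptor signalling it holds *Tagap* and *Egr3*, a transcription factor gene induced by the receptor, at 66.0% of WT with overlap.

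**Figure D4:**
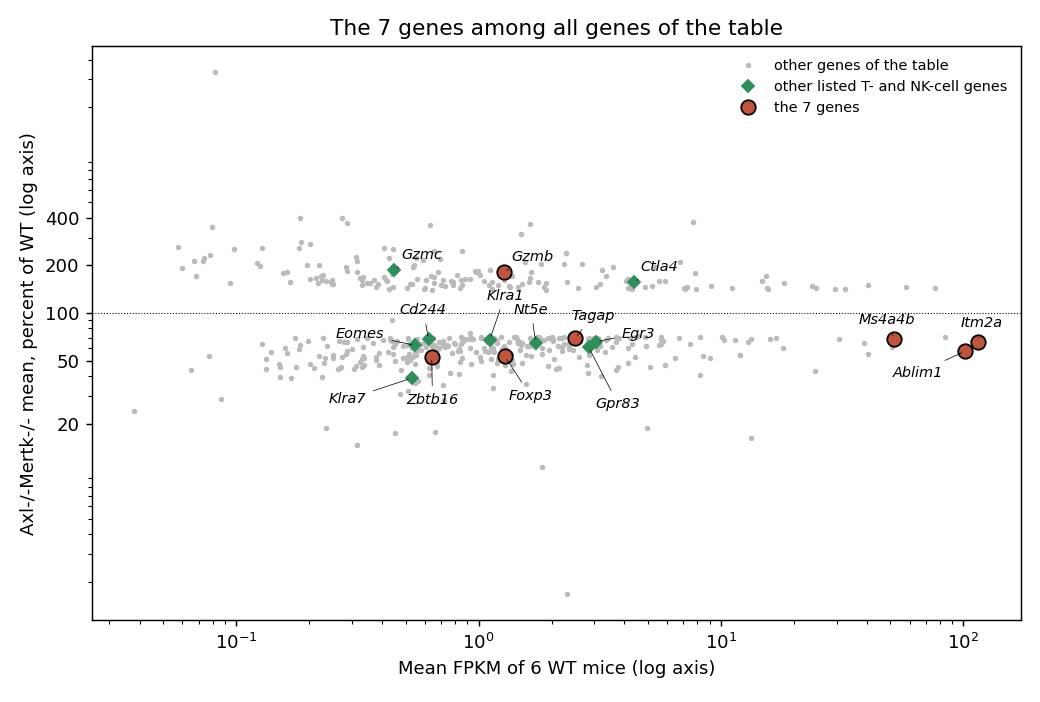
Mean FPKM of the 6 WT mice (x axis, log scale) against the *Axl-/-Mertk-/-* mean as percent of WT (y axis, log scale) for all 479 genes, with the 7 genes as large circles and the other listed T- and NK-cell genes as diamonds. *Itm2a*, *Ablim1* and *Ms4a4b* are among the most abundant genes of the table, and *Gzmb*, *Gzmc* and *Ctla4* lie above 100% while the other labelled genes lie below.

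Markers of other thymic cells moved with the genotype. *Axl*, one of the mutated genes, had 13.3 ± 1.83 FPKM in WT and 2.17 ± 0.199 in mutants (SD, n = 6 each). Of all 479 genes, 313 had a lower mean and 166 a higher one, and 26.3% were lower and 12.7% higher without overlap. Of 21 macrophage genes, 11 are in the table, 10 with a lower mean and 7 of them without overlap. The sum over the 11 was 151 to 233 FPKM in WT and 84.7 to 129 in mutants. *Axl* is counted in the 11, the 10, the 7 and the sum, so part of these values is the mutated gene itself. *Marco*, a scavenger receptor gene of this list, was at 0 in at least 1 mouse. Of 22 dendritic cell genes, 3 are in the table, all with a lower mean and 1 without overlap (sum 31.0 to 60.5 FPKM in WT and 21.1 to 30.9 in mutants). Most of that sum is *Ccl22*, with means of 40.3 FPKM in WT and 22.1 in mutants. Of 25 genes of medullary epithelium, 5 are in the table, all with a lower mean and 1 without overlap (sum 5.70 to 9.76 and 3.92 to 5.75 FPKM). They are *Cd80*, *Avil*, *Dclk1*, *Gnb3* and *Trpm5*, while *Aire*, *Krt5* and *Krt14* of that list are absent. *Cd80* had the most, with a WT mean of 3.78 FPKM, and *Dclk1* stood at 89.8% of WT. The 1 of 16 B-cell genes was lower with overlap (1.77 to 3.22 and 1.19 to 2.83 FPKM). Of 12 genes of cortical epithelium 0 are in the table. A list of 13 mitosis genes, made after their values were seen, had higher means in mutants for all 13, 7 without overlap, with sums of 242 to 414 FPKM in WT and 431 to 524 in mutants. In RNA of whole tissue, fewer cells of a type and less RNA per cell cannot be told apart, and FPKM is relative to all other RNA. The part of these changes in the values of the 7 genes was not tested.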

How the data were processed

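Whole-thymus RNA of 12 mice was analysed, 6 WT and 6 *Axl-/-Mertk-/-*, each mouse being 1 replicate grouped by its label. The authors made stranded poly(A) libraries, sequenced single reads on a HiSeq 2500 (CASAVA 1.8.2 and FastQC in the submitters' processing notes), mapped them to mm10 with STAR 2.5.3a and computed FPKM over exons with HOMER 4.10.4. They deposited log2 values, log2(FPKM + 5), of 479 genes. The rule that selected these genes and the use of strand in counting are not given in the sources used here. FPKM were recovered by undoing the logarithm.

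Differences were fitted with limma 3.58.1 in R 4.3.3 on the deposited log2 values, with Benjamini-Hochberg adjustment over the whole table. Sex was a covariate for genotype, and genotype for sex. Because the table holds normalized values, limma took the place of a count model. Replicates are separate mice. Pairs of genes were compared by exact permutation within a genotype (Python 3.11.15, numpy 2.4.6, pandas 2.3.3, matplotlib 3.10.9). Depth was the number of reads at which low FPKM became whole reads for 324 genes with a single annotated RefSeq transcript length. The length that made the values of a member whole was then taken, and lay within 0.163 read of whole numbers for every mouse. For *Gzmb* it was 1512 bases, against an annotated 1436, so its read counts are less certain. Fitted and nearest annotated lengths were 3766 and 3763 for *Foxp3*, 5125 and 5114 for *Zbtb16*, and 3077 and 3076 for *Tagap*. All 3 methods were tested on simulated data. Named genes were the 7 members, *Axl*, genes of the marker lists (up to 10 by name per T-cell list), the 3 genes most like each member and family members. Members and lists were chosen with earlier results of these data known. Alternatives were constants of 1 and 0.1, leaving out genes under 1 FPKM on average, a variance trend with intensity, a fit without sex, each sex or genotype alone, leaving out each mouse, Spearman's rho and removal of sex means.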

Additional observations from a re-analysis of the deposited data

Results flagged for a closer look

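*Ablim1* in mouse AMDKO_220 stood apart from the other mutants. Its 93.3 FPKM lay above the next mutant at 54.6 FPKM, a gap of 0.803 of the range of the 6 mutants and beyond the 95% limit of Dixon's test for 6 values. *Axl*, the check of the genotype, stood apart in mouse WT_212, at 16.9 FPKM with the next WT mouse at 13.5 FPKM, a gap of 0.667 of the range. Chance alone picks out about 1 group in 20, and 16 groups were looked at.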

How the results depend on the processing

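The directions of the 7 genotype differences held under all alternatives run. For the 6 genes without overlap these alternatives could not have changed the direction, so nothing is read from this. The number of members past both thresholds, 2, became 4 with a constant of 1, 7 with a constant of 0.1 and 1 in females alone, and was 2 to 3 when 1 mouse was left out. *Ms4a4b* was the gene added, without mouse WT_214, mouse WT_210 or mouse AMDKO_220. In the table, 15 genes were lower and 14 higher, and 57 and 51 with a constant of 1 or 244 and 141 with 0.1. In males alone 8 were lower and 16 higher, in females alone 16 lower and 10 higher, and leaving out 1 mouse gave 13 to 19 lower and 10 to 19 higher. The filter on mean FPKM left 5 members, without *Foxp3* and *Zbtb16*.

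No member passed for sex or for the interaction under any alternative run (limma). In the table, the number higher in males was 1 in mutants alone and 0 to 6 when 1 mouse was left out, with the 6 found without mouse WT_210. The interaction gave 0 to 2 genes lower and 0 to 5 higher, all of them without mouse AMDKO_220. The sex difference changed sign for *Foxp3* in mutants alone (-0.0167) and for *Ablim1* in WT alone (0.0288). With 1 mouse left out, it ranged over 0 for *Foxp3* (-0.00262 to 0.0333), *Zbtb16* (-0.00369 to 0.0226) and *Gzmb* (-0.0281 to 0.0108), and the interaction did so for *Itm2a* (-0.128 to 0.104), *Zbtb16* (-0.0399 to 0.0192), *Gzmb* (-0.0232 to 0.0643) and *Tagap* (-0.0635 to 0.00840). The median r of the mutants ranged from -0.290 to 0.144. The genotypes were apart for 6 to 7 members. Spearman's rho kept 9 of the 21 most similar genes. The cause of these changes was not tested. No paired analysis was possible because the genotypes share no mouse numbers.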
